A study of Homo sapiens with 20 samples.

Results

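The mRNA levels of 10 ETS family transcription factors were compared between WT Jurkat cells, a human T lymphoblast line, and JinB8, a somatic Jurkat mutant that lacks surface CD47 and is called CD47- here. The members, ETS1, ETS2, FLI1, ERG, ELF1, ELF2, ELF4, ETV6, GABPA and ELK4, were taken by name as ETS factors expressed in T cells. They are 10 of the 60719 genes and own 77 of the 232184 isoforms in the tables. JinB8 is a single mutant line, so a difference between the lines cannot be assigned to CD47 alone. Each line gave 10 libraries from cells held in serum-free HITES medium, which holds insulin, transferrin and hydrocortisone. For both lines these were 1 library of untreated cells, taken at 1 h, and 1 library for each of 1, 3 and 6 h on plates coated with anti-CD3 and anti-CD28 (4 µg/mL, CD3+CD28), on such plates with 1 µg/mL of the CD47 ligand thrombospondin-1 (CD3+CD28+TSP1), or with TSP1 alone. No condition was sequenced more than once. The study used these cells to ask how CD47 and its ligand shape transcription during T cell activation.

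ETS factors share a winged helix-turn-helix domain that binds DNA around a GGAA core, and neighbouring bases and partner proteins set which member binds where. ETS1, FLI1 and ERG activate lymphoid and vascular genes, and ETS1 is known for its high level in resting T cells. ELF1, ELF2 and ELF4 form a second branch, of which ELF4 is known as a brake on T cell proliferation. ETV6 is a repressor that self-associates through its pointed domain. GABPA, the DNA-binding subunit of GABP, drives housekeeping, mitochondrial and IL7R transcription together with GABPB subunits. ELK4 is a ternary complex factor that binds DNA beside SRF.

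ETS1 and ETV6 mRNA were each higher in CD47- cells, and GABPA mRNA was lower. For these 3 genes the 10 libraries of each line did not overlap in counts scaled to library size, as was so for 11.5% of all genes tested. For GABPA the levels per length, given below, did overlap. In bulk cultures a fall in mRNA per cell and a fall in the number of cells that hold it cannot be told apart. ETS2, ELF1, ELF2 and FLI1 passed the edgeR test over time in both lines, and not between the lines, as reported here. With libraries of the same treatment and time paired, FLI1 was also called higher in CD47- cells. Time in the medium and time under treatment cannot be told apart. GABPA and ELK4 did not pass the edgeR test over time as reported here. No member passed that test for the treatment contrasts, where at most 0.0919% of all genes did.

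Library totals were 20483642 to 31737616 counts in WT and 16107921 to 28525524 in CD47- cells. The T cell markers CD3D, CD3E, CD3G, CD247, CD2, CD28 and LCK were all measured in both lines, with summed levels of 1121 to 1483 CPM (counts scaled to library size) in WT and 1324 to 1952 CPM in CD47- cells. Of 16 markers of B, myeloid, epithelial, megakaryocyte and endothelial cells, 14 averaged under 1 CPM in each line, and the exceptions differed between the lines. The mean level of CD79A was 42.15 CPM in WT and 6.74 CPM without CD47, and that of PECAM1 was 46.7 and 109.8 CPM. Of the T cell markers CD28 (45.05 and 229.6 CPM) and CD2 (43.3 and 116.9 CPM) were also higher in mean in CD47- cells. Their part in the results was not tested. CD47 mRNA was still present in CD47- cells, at 147 ± 12.6 CPM (SD, n = 10) against 316 ± 42.1 CPM in WT. The library of CD47- cells with CD3+CD28+TSP1 at 3 h stood apart. It had the lowest total, and its median correlation with its own line was 0.968, where the other 19 libraries gave 0.971 to 0.984. It held the highest ELK4, ELF4 and ETV6 levels of its line, and the values it changed most are given with and without it.

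Lengths differ between genes, so the order of the members was read from levels per length, in TPM-like units that divide counts by length. ETS1 stood first in both lines, at 47.2 ± 10.5 in WT and 152 ± 17.0 in CD47- cells (SD, n = 10). In WT cells ELF1 followed at 40.9 ± 9.36 and ETS2 at 34.2 ± 13.7, so the first ranks were within their spread of each other. In CD47- cells ELF1 was at 49.4 ± 17.5 and ETS2 at 40.8 ± 6.52, and the lowest ETS1 library, at 128, lay above the highest ELF1 library, at 72.1. ELF2, GABPA, FLI1 and ELK4 came next, with WT means of 22.5, 21.2, 12.03 and 11.2. Their CD47- means were 30.6, 19.8, 17.7 and 11.97. On this scale the GABPA ranges of the lines overlapped. The lines were not tested against each other per length. ETV6 (2.84 in WT, 10.4 in CD47-), ELF4 (1.99 and 3.75) and ERG (0.0866 and 0.285) filled the last places. The order of the 10 means was the same in both lines.

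**Figure D1:**
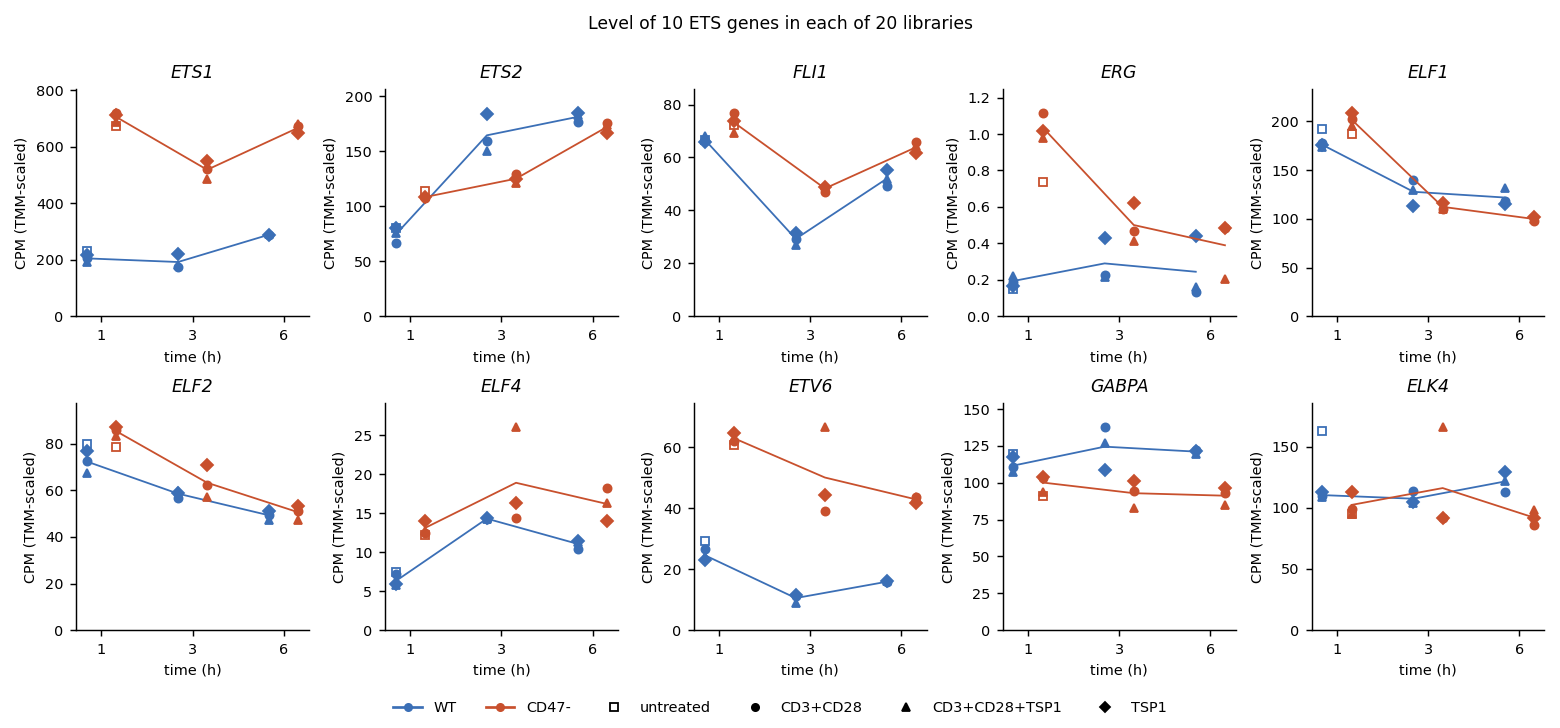
TMM-scaled CPM of each member (y axis, linear from 0) at 1, 3 and 6 h (x axis) in the 20 libraries. Blue marks WT and red marks CD47-, marker shapes give the treatment, and lines join the means of the 3 treated libraries at each time. ETS1 and ETV6 lie apart between the lines at every time, ETS2 crosses over between 1 and 3 h, and the CD47- library with CD3+CD28+TSP1 at 3 h stands above its neighbours for ELK4, ELF4 and ETV6.

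Among the activators, ETS1 differed most clearly between the lines. The gene lies on chromosome 11 (GRCh38, chr11:128458761-128587558, minus strand). Its 10 WT libraries ran from 174 to 293 CPM with a median of 219, and its 10 CD47- libraries from 487 to 719 CPM with a median of 674. The lowest CD47- library, at 3 h with CD3+CD28+TSP1, was still above the highest WT library. The log2 fold change was 1.47 ± 0.11 (SE), or 2.77-fold, with an adjusted p of 1.9e-10 in edgeR's quasi-likelihood test. By pairs of matched treatment and time, CD47- was higher in 10 of 10. The share of all genes with 10 of 10 pairs in the same direction was not counted, so such pair counts are descriptive throughout. FLI1 follows ETS1 on the chromosome, 98976 bases away on the opposite strand (chr11:128686535-128813267). FLI1 ran from 26.8 to 68.3 CPM in WT (median 53.4) and from 46.9 to 76.6 CPM in CD47- cells (median 65.0), and the ranges overlapped. Its log2 fold change of 0.30 ± 0.17 did not pass the test (adjusted p 0.16). With the 10 matched pairs as a replicate block it did, at 0.35 (adjusted p 0.0017), and CD47- was higher in 10 of 10 pairs.

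ETS2, which is induced by growth signals in many cells, showed no net difference between the lines. Its levels ran from 66.8 to 184 CPM in WT and from 107 to 176 CPM in CD47- cells, with a log2 fold change of -0.01 ± 0.20 and an adjusted p of 0.97. Its sign changed with the processing, and at 1 h and 3 h the lines differed in opposite directions. ERG, an endothelial and haematopoietic progenitor factor that is normally silenced as T cells mature, was near the limit of detection. Its libraries held 3 to 11 counts each in WT and 5 to 28 in CD47- cells. The summed counts, 55 in WT and 160 in CD47- cells, gave a depth-scaled ratio of 3.04 (exact 95% interval 2.23 to 4.21, counting error only). The low-count filter of 0.420 CPM was met by 9 CD47- libraries and by 2 WT libraries. ERG thus entered the test through the line in which it is higher. Neither its call between the lines nor the interval above is used as support. Its ranges overlapped. CD47- was higher in 10 of 10 pairs, by as little as 0.483 against 0.439 CPM with TSP1 at 6 h. At so few counts this pair count is not used as support either.

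In the ELF branch, ELF4 was higher in CD47- cells. It ran from 5.79 to 14.3 CPM in WT (median 10.9) and from 12.2 to 26.02 CPM in CD47- cells (median 14.2). The log2 fold change was 0.61 ± 0.18 with an adjusted p of 0.010, and CD47- was higher in 10 of 10 pairs although the ranges overlapped. Without the library that stood apart it was 0.52 (adjusted p 0.019). The call was lost in the 6 activated pairs (0.68, adjusted p 0.055) and in the 4 unactivated pairs (0.55, adjusted p 0.20). ELF1, an activator of lymphoid genes, had log2 fold change -0.04 ± 0.17 (adjusted p 0.87), with a median of 136 CPM for WT libraries and 114 CPM for CD47- ones. ELF2, whose isoforms include activating and repressing forms, had 0.13 ± 0.13 (adjusted p 0.47), with medians of 59.4 and 66.4 CPM. With time as a term in the fit, ELF2 passed the test at 0.11 (adjusted p 0.033).

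The repressor ETV6 was higher in CD47- cells. It ran from 8.86 to 29.4 CPM in WT (median 15.98) and from 39.2 to 66.6 CPM in CD47- cells (median 52.7), with no overlap. The log2 fold change was 1.54 ± 0.19, or 2.90-fold (adjusted p 1.1e-06), and 1.51 without the library that stood apart. By matched pair, ETV6 was higher in CD47- cells in 10 of 10, with the mean difference at 1.26 on the log2 scale at 1 h, 2.17 at 3 h and 1.40 at 6 h. The 3 h pairs were 1.78, 1.89 and, with the library that stood apart, 2.84.

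GABPA was the only member called lower in CD47- cells. Its libraries ran from 107 to 138 CPM in WT (median 120) and from 83.2 to 104 CPM in CD47- cells (median 94.1). In CPM every CD47- library lay below every WT library. Per length the ranges overlapped, at 16.98 to 24.57 in WT and 16.29 to 23.17 in CD47- cells. The log2 fold change of -0.34 ± 0.06 (adjusted p 8.1e-05) corresponds to a CD47- level of 0.793 of WT. In the 4 pairs of unactivated cells alone it was -0.23 with an adjusted p of 0.15. ELK4 had a median of 113 CPM for WT libraries and 94.9 CPM for CD47- ones and a log2 fold change of -0.20 ± 0.11 (adjusted p 0.15). One library in each line lay far above its group, untreated WT cells at 163 CPM and CD47- cells with CD3+CD28+TSP1 at 3 h at 166 CPM. Without the latter, ELK4 was called lower in CD47- cells at -0.29 (adjusted p 0.0048).

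In all, 5 of the 10 members were called between the lines, and 40.4% of the 16327 genes tested were called as well. ERG is among the 5, and with a filter of 1 CPM in every library, where it was not tested, 4 members were called. Of the 5, 4 were higher, ERG included, where 19.8% of genes were, and 1 was lower, where 20.6% were. The share called is therefore close to that of all genes. The median log2 fold change was 0.21 over the members and -0.01 over all genes tested, and the median size of the change, regardless of sign, was 0.32 against 0.29. In CPM, ranges that did not overlap were found for 3 of the 10 members, ETS1, ETV6 and GABPA, and for 11.5% of the genes tested.

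**Figure D2:**
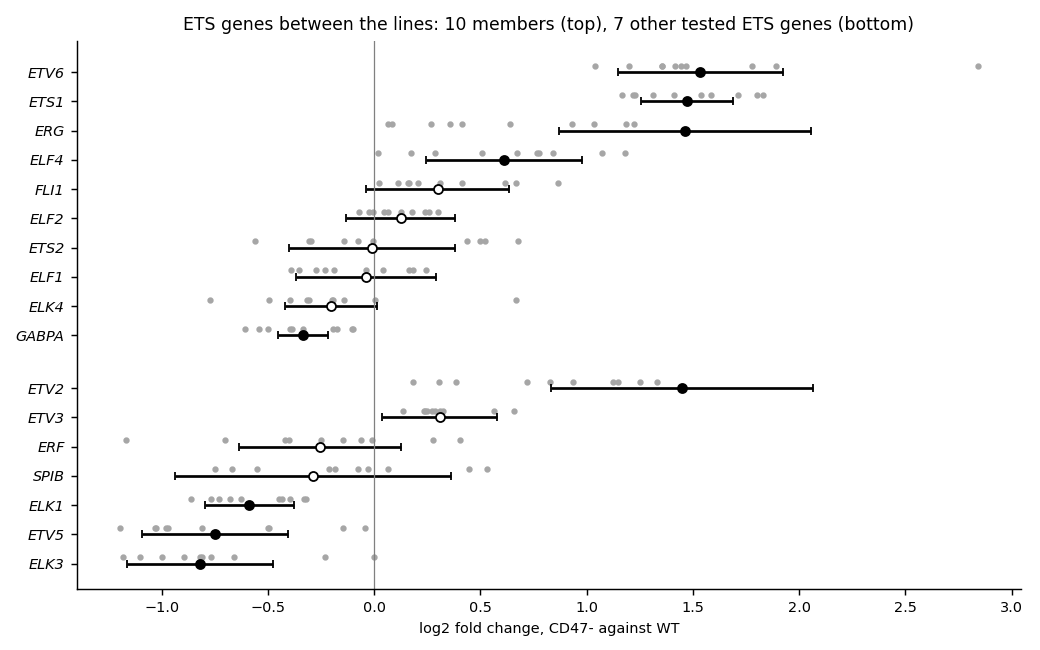
Fitted log2 fold change, CD47- against WT (x axis), with bars of 2 SE, for the 10 members (top) and the 7 other ETS genes that were tested (bottom). Filled circles passed edgeR's test, open circles did not, and grey points are the 10 matched pairs (0.5 CPM added to both sides, which pulls genes under 1 CPM such as ERG toward 0). All 10 grey points lie right of 0 for ETS1, ETV6, ERG, ELF4 and FLI1 and left of 0 for GABPA. The smallest pair was 0.0175 for ELF4 and 0.021 for FLI1. How common such agreement is among all genes was not counted.

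The promoter table of RefSeq (GRCh38.p14) held 8 of the members, all but ETS1 and FLI1. A full ETS site, CCGGAAGT on either strand, occurred in the promoter window (250 bases before to 50 after the start site) of ELK4 and GABPA. That is 2 of the 17 windows these members have, and 1453 of all 35116 windows (4.14%) hold it. The shorter CGGAAG, which is contained in it, occurred in the same 2 of 17 windows and in 19.5% of all windows. Both stretches are shown because they carry the letters that ETS proteins themselves bind. Whether any factor binds there was not measured. In the windows below, capitals mark the site, which ended 14 bases before the ELK4 start and 59 bases before the RefSeq start of GABPA at 25734972, which is that of GABPA-202. GABPA-201 starts upstream, at 25734570, and the site lies within its first exon, so only 30 bases are shown for GABPA. The ELK4 stretch is chr1:205632012-205632071 on the minus strand and reads the site on the strand of the gene, and the GABPA stretch is chr21:25734894-25734923 on the plus strand and reads its reverse complement.
ELK4: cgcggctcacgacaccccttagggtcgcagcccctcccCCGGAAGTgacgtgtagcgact
GABPA: acctccgctctACTTCCGGccctggctccg

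The levels of the members were next compared over time. In WT cells 7 of 10 members changed between 1 and 6 h, where 50.5% of genes did, with 3 higher (25.7% of genes) and 4 lower (24.8%). In CD47- cells 6 of 10 changed, where 53.0% of genes did, with 1 higher (26.0%) and 5 lower (27.0%). ERG is among those lower. With 1 CPM in every library, where ERG was not tested, 5 members were called in all. The median log2 change over the members was 0.13 in WT and -0.18 in CD47- cells. Between 1 and 3 h, 6 members changed in WT cells (34.3% of genes) and 8, ERG among them, in CD47- cells (38.0%). Without the CD47- library with CD3+CD28 at 1 h the latter count was 4, and without the one with CD3+CD28 at 3 h it was 5. Untreated cells were taken at 1 h only, so the time in the medium and the time under treatment cannot be told apart. The fitted changes over time rest on the 9 treated libraries of each line, since the untreated library has its own term, whereas the 1 h means below include it (n = 4).

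ETS2 rose in both lines and by unlike amounts. At 1 h the 4 WT libraries held 66.8 to 80.2 CPM and the 4 CD47- libraries 107 to 114 CPM. At 3 h the 3 WT libraries stood at 164 ± 17.5 CPM (SD) and the 3 CD47- libraries at 125 ± 4.08 CPM. At 6 h the means were 181 ± 4.26 and 172 ± 4.79 CPM. At 1 h every CD47- library lay above every WT library, at 3 h every one lay below, and at 6 h the ranges, 176 to 184 CPM (WT) and 167 to 176 CPM (CD47-), nearly met. The log2 change at 3 h was 1.15 ± 0.07 in WT (adjusted p 8.5e-08) and 0.21 ± 0.07 in CD47- cells (adjusted p 0.022). The latter call was lost when the CD47- libraries with CD3+CD28 at 1 h, CD3+CD28 at 3 h or TSP1 at 3 h were left out (adjusted p up to 0.11), and without the low-count filter (adjusted p 0.12). CD47- minus WT, this change differed by -0.94 ± 0.09 (adjusted p 0.00017), and at 6 h it was -0.62 ± 0.09 (adjusted p 0.00059).

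FLI1 fell and partly came back. In WT cells it was at 66.8 ± 1.05 CPM at 1 h (SD, n = 4), 29.3 ± 2.39 CPM at 3 h and 52.0 ± 3.02 CPM at 6 h (n = 3 each). In CD47- cells the corresponding means were 73.0 ± 3.08, 48.3 ± 1.28 and 63.9 ± 2.04 CPM. Every 3 h library lay below every 1 h and 6 h library of its line. The log2 change at 3 h was -1.19 ± 0.07 in WT (adjusted p 9.2e-08) and -0.60 ± 0.07 in CD47- cells (adjusted p 2.4e-05). The interaction was 0.59 ± 0.10 (adjusted p 0.0058). From 3 to 6 h FLI1 rose by 0.83 ± 0.07 in WT (adjusted p 1.4e-06) and by 0.40 ± 0.07 in CD47- cells (adjusted p 0.00044). At 6 h it was still below 1 h in WT, at -0.36 ± 0.07 (adjusted p 0.00052), and at -0.20 ± 0.07 in CD47- cells (adjusted p 0.024). That CD47- call was lost without any 1 of 4 libraries, CD3+CD28 at 1 or 6 h and TSP1 at 1 or 6 h (adjusted p 0.072 to 0.16), by limma voom (adjusted p 0.11) and without the low-count filter (adjusted p 0.14).

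ETV6 had a like course in WT cells. It was at 25.8 ± 2.85 CPM at 1 h (SD, n = 4), 10.5 ± 1.46 CPM at 3 h and 15.9 ± 0.157 CPM at 6 h (n = 3 each). The fall at 3 h was -1.23 ± 0.14 on the log2 scale (adjusted p 2.4e-05), and the rise from 3 to 6 h was 0.60 ± 0.14 (adjusted p 0.0047). In CD47- cells ETV6 was at 62.5 ± 1.59, 50.1 ± 14.5 and 42.9 ± 1.15 CPM, and the 3 h libraries were 39.2, 66.6 and 44.4 CPM. The high one is the library that stood apart, with CD3+CD28+TSP1. The CD47- change at 3 h was -0.36 ± 0.13 (adjusted p 0.044), a call that leaving out any 1 of 6 libraries removed (adjusted p up to 0.27), as did limma voom (0.071) and a filter of 1 CPM in every library (0.060). Without the library that stood apart the fall was larger, at -0.58 (adjusted p 0.00030), and the interaction at 3 h was 0.65 (adjusted p 0.012). At 6 h the changes were -0.63 ± 0.14 in WT (adjusted p 0.0017) and -0.56 ± 0.13 in CD47- cells (adjusted p 0.0025). With all libraries the interaction at 3 h was 0.87 ± 0.19 (adjusted p 0.026). It was lost (adjusted p up to 0.10) without WT or CD47- CD3+CD28+TSP1 at 1 h, without CD47- CD3+CD28 at 1 h or without WT CD3+CD28+TSP1 at 3 h.

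ETS1 rose by 6 h in WT cells. WT means were 212 ± 16.3 CPM at 1 h (SD, n = 4), 192 ± 24.9 CPM at 3 h and 289 ± 3.08 CPM at 6 h (n = 3 each). CD47- means were 698 ± 21.2, 519 ± 31.1 and 668 ± 17.4 CPM. At 6 h the log2 change was 0.50 ± 0.08 in WT (adjusted p 1.0e-04) and -0.08 ± 0.08 in CD47- cells (adjusted p 0.41), and the difference between these changes was -0.58 ± 0.11 (adjusted p 0.0028). The dip at 3 h in CD47- cells was -0.44 ± 0.08 (adjusted p 0.00056). In matched pairs, the excess of ETS1 in CD47- cells averaged 1.72 on the log2 scale at 1 h, 1.44 at 3 h and 1.21 at 6 h.

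ELF1 and ELF2 fell in both lines. The WT mean of ELF1 was 179.8 ± 8.06 CPM at 1 h (SD, n = 4) and 122 ± 8.45 CPM at 6 h (n = 3), and the CD47- mean went from 198 ± 9.23 to 99.8 ± 1.76 CPM. The log2 changes were -0.53 ± 0.07 (adjusted p 1.6e-05) and -1.02 ± 0.07 (adjusted p 3.6e-08), and the interaction was -0.48 ± 0.09 (adjusted p 0.0036). ELF2 went from 74.2 ± 5.35 to 49.2 ± 1.86 CPM in WT and from 83.7 ± 3.76 to 50.6 ± 3.12 CPM in CD47- cells. Its log2 changes were -0.55 ± 0.06 (adjusted p 7.0e-06) and -0.76 ± 0.06 (adjusted p 3.1e-07), with an interaction of -0.20 ± 0.09 that did not pass the test (adjusted p 0.14).

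ELF4 rose in WT cells. Its 1 h libraries averaged 6.58 ± 0.852 CPM (SD, n = 4), those at 3 h 14.3 ± 0.0458 CPM and those at 6 h 11.1 ± 0.564 CPM (n = 3 each). The log2 changes were 1.19 ± 0.18 (adjusted p 0.00017) and 0.82 ± 0.18 (adjusted p 0.0015). In CD47- cells the 3 h change was 0.50 ± 0.17 (adjusted p 0.029) and dropped to 0.24 (adjusted p 0.18) without the library that stood apart. By limma voom it was 0.43 (adjusted p 0.073). In edgeR it was 0.34 (adjusted p 0.18) without CD3+CD28+TSP1 at 1 h and 0.50 (adjusted p 0.084) without CD3+CD28 at 1 h. The CD47- change at 6 h was 0.30 ± 0.17 (adjusted p 0.14), or 0.30 with adjusted p 0.034 without the library that stood apart. The interaction at 3 h was -0.69 ± 0.24 (adjusted p 0.12) with all libraries and -0.95 (adjusted p 0.0097) without that one. Without the low-count filter it was called as well (-0.67, adjusted p 0.019), as was the change from 3 to 6 h in WT (-0.37, adjusted p 0.043). Without the library that stood apart the interactions of ELF4 (-0.52, adjusted p 0.037) and ELK4 (-0.29, adjusted p 0.042) at 6 h were called too.

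ERG fell in CD47- cells, where 4 libraries at 1 h held 0.740 to 1.11 CPM and 3 libraries at 6 h held 0.203 to 0.483 CPM. The log2 change at 6 h was -1.44 ± 0.35 (adjusted p 0.0035), at counts of at most 28 per library. At 3 h it was -1.06 ± 0.34 (adjusted p 0.026), which was lost without any 1 of 4 libraries (adjusted p up to 0.12) and without the low-count filter (0.14). ERG passed that filter through CD47- cells, so its calls over time are not used as support. GABPA and ELK4 had no called change over time in the reported edgeR fit. GABPA at 6 h was 0.12 ± 0.07 in WT (adjusted p 0.20) and -0.14 ± 0.07 in CD47- cells (adjusted p 0.14). ELK4 at 6 h was 0.14 ± 0.15 in WT (adjusted p 0.47) and -0.17 ± 0.15 in CD47- cells (adjusted p 0.38). Other fits called some of these changes. By limma voom GABPA rose at 3 h in WT (0.22, adjusted p 0.018), and without the low-count filter ELK4 fell from 3 to 6 h in CD47- cells (-0.31, adjusted p 0.0080). GABPA was also called higher at 3 h in WT without TSP1 at 1 h (0.23, adjusted p 0.044) or without TSP1 at 3 h (0.26, adjusted p 0.0094). ELK4 was called lower at 6 h in CD47- cells without CD3+CD28+TSP1 at 1 h (-0.37, adjusted p 0.031). It was also called lower from 3 to 6 h there without TSP1 at 3 h (-0.48, adjusted p 0.025). Without WT TSP1 at 3 h the GABPA interaction was called at 3 h (-0.37, adjusted p 0.036) and at 6 h (-0.25, adjusted p 0.046).

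**Figure D3:**
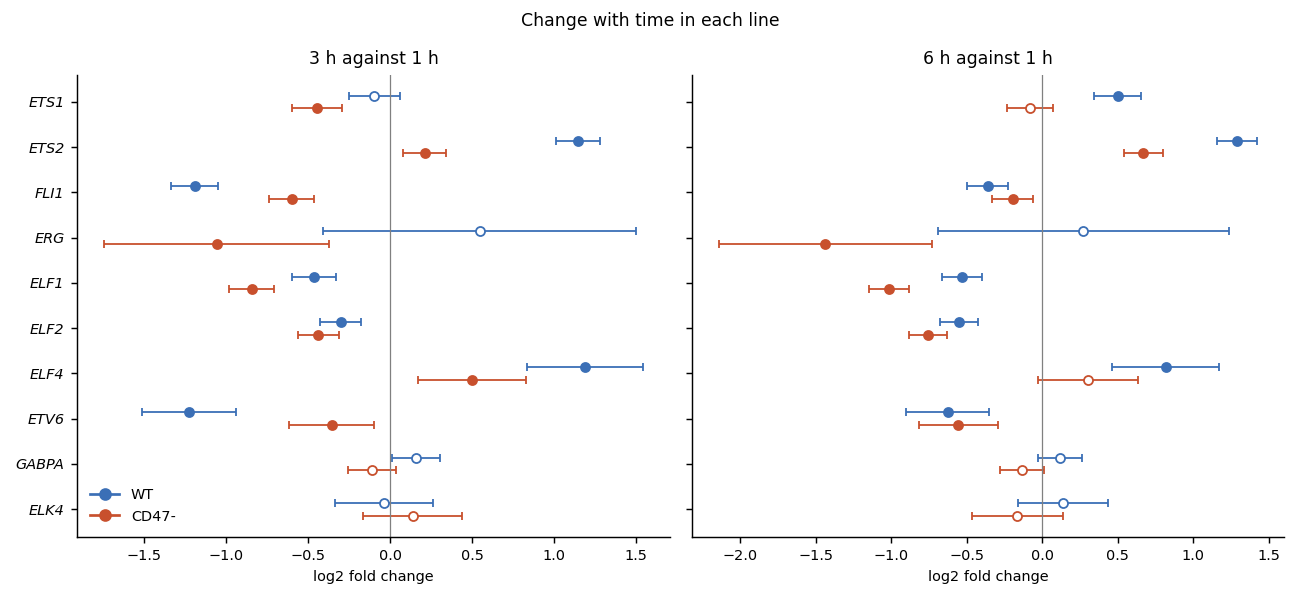
Fitted log2 change at 3 h (left) and 6 h (right) against 1 h in WT (blue) and CD47- cells (red), with bars of 2 SE and filled circles where edgeR's test was passed. FLI1 and ETV6 lie furthest left at 3 h in WT cells and nearer 0 at 6 h, ETS2 lies right of 0 in both lines, and ELF1 and ELF2 lie left of 0 in both.

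Over the members, 3 interactions of line with time passed the test at 6 h, those of ETS1, ETS2 and ELF1, where 16.6% of genes did. Without the CD47- library that stood apart the count was 5. At 3 h 4 passed, those of ETS2, FLI1, ETV6 and ELF1, where 4.28% of genes did. Leaving out 1 library gave 2 to 5, with 2 in the same 4 fits that lost ETV6. The ELF1 interaction at 3 h (-0.38 ± 0.09, adjusted p 0.039) was lost in 15 of 18 such fits (adjusted p up to 0.18) and without the low-count filter (0.10). The ETS1 interaction at 3 h was called by DESeq2 (-0.34, adjusted p 0.031) but not by edgeR. In matched pairs the log2 excess of ETS1 went from 1.80 at 1 h to 1.58 at 3 h with CD3+CD28. It went from 1.83 to 1.41 with CD3+CD28+TSP1 and from 1.71 to 1.31 with TSP1. The replicate block was run for the comparison of the lines only, so the interactions do not take the pairing into account. From 3 to 6 h 4 members changed in WT cells (39.5% of genes) and 4 in CD47- cells (39.0%). Both lists held ETS1, FLI1 and ELF2, with ETV6 as the fourth in WT and ETS2 in CD47- cells. ETS1 in CD47- cells was not called by limma voom (0.18, adjusted p 0.052), nor ELF2 in WT without the low-count filter (-0.25, adjusted p 0.059). ELF1 in CD47- cells was gained by limma voom (-0.20, adjusted p 0.019) and with 1 CPM in every library (-0.17, adjusted p 0.043).

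Activation in the presence of TSP1, and TSP1 added to activated cells, gave no called member in edgeR as reported. For CD3+CD28+TSP1 against TSP1, 0 members were called in WT cells (0.0919% of genes) and 0 in CD47- cells (0% of genes). For CD3+CD28+TSP1 against CD3+CD28, 0 members were called in either line (0% of genes in both), and for the difference between the lines in CD3+CD28+TSP1 against TSP1, 0 (0% of genes). At an unadjusted p under 0.05 in edgeR, the members counted were 0 in WT and 2 in CD47- cells against TSP1. They were 0 and 1 against CD3+CD28, and 1 for the difference. Of all 16327 genes, 816 and 2636 were under that p against TSP1, 366 and 1771 against CD3+CD28, and 1048 for the difference. DESeq2 and limma voom called 0 members in all of these. Without the low-count filter edgeR called 1, ELK4 in CD47- cells for CD3+CD28+TSP1 against CD3+CD28, at 0.34 (adjusted p 0.031), a contrast that includes the library that stood apart. In WT cells the fitted changes of the 9 members other than ERG against TSP1 ran from -0.14 for ETS1 to 0.12 for ELF1, with SE of 0.06 to 0.17. ERG had -0.78 ± 0.44. In CD47- cells they ran from -0.20 for GABPA to 0.27 for ELF4, and the ERG value was -0.50 ± 0.36. The ELF4 value includes the library that stood apart, at 26.02 CPM against 16.25 CPM with TSP1 at 3 h. The corresponding levels were 12.73 and 14.04 CPM at 1 h and 16.33 and 14.02 CPM at 6 h. Untreated and CD3+CD28 libraries at 1 h were single, and ETS1 stood at 232 and 206 CPM in WT and, in CD47- cells, at 673 and 719 CPM.

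RSEM assigned the ETS1 counts to isoforms that encode different protein forms. These isoforms share exons, and RSEM divides shared reads among them. In GENCODE version 44, ETS1-202 starts at an upstream first exon (chr11:128587488-128587558) and encodes 485 amino acids. The other main isoforms start within the gene, in an exon that ends at base 128522310 or 128522201. ETS1-204 encodes 354 amino acids and lacks a coding exon of 261 bases that ETS1-202 and ETS1-201 share. ETS1-208 encodes 225 amino acids, keeps that exon, and lacks 4 others of 120, 201, 78 and 249 bases. The exon that ETS1-204 lacks is chr11:128480191-128480451 on the minus strand of GRCh38. Its length equals 87 codons without remainder, so leaving it out keeps the reading frame, although its first base lies within a codon. The exon is known to carry part of the sequence that holds back DNA binding of the full-length protein. It is shown because it separates forms of ETS1 that were counted apart here.
ETS1 exon: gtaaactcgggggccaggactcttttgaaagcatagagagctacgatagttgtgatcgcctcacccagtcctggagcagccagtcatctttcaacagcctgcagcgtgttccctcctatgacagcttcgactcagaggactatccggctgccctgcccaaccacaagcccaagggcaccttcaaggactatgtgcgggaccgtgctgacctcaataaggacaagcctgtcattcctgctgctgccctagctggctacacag

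All 3 main ETS1 isoforms were higher in CD47- cells. ETS1-202 averaged 98.7 ± 18.4 CPM in the WT libraries and 296 ± 61.5 CPM in the CD47- ones (SD, n = 10), a log2 fold change of 1.60 ± 0.13 (adjusted p 1.5e-08). ETS1-208 went from 77.9 ± 19.3 to 199 ± 25.4 CPM, and ETS1-204 from 42.5 ± 8.82 to 107 ± 18.5 CPM, with 1.37 ± 0.13 and 1.36 ± 0.13 (adjusted p 1.3e-07 and 1.4e-07). The minor ETS1-201, with 441 amino acids, rose as well, at 1.87 ± 0.26 (adjusted p 2.6e-05). Their shares of the ETS1 count hardly moved. ETS1-202 held 43.2% ± 3.82 in WT and 46.1% ± 4.76 in CD47- cells, ETS1-208 33.8% ± 2.93 and 31.4% ± 3.23, and ETS1-204 18.6% ± 1.49 and 16.9% ± 2.20. None of these shares passed the test of log2 ratios in limma (adjusted p 0.36 to 0.49).

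**Figure D4:**
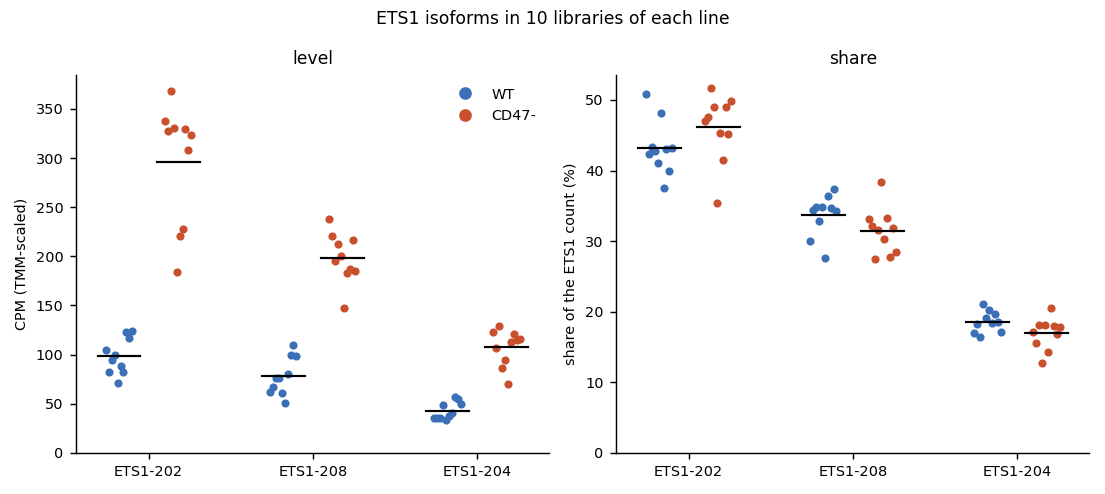
Level in TMM-scaled CPM (left) and share of the ETS1 count in percent (right) of the 3 main ETS1 isoforms in the 10 libraries of WT (blue) and CD47- cells (red), with black bars at the means. The levels of each isoform lie apart between the lines, while the shares overlap.

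Over the members, 36 of 77 isoforms passed the count filter, and 10 of these were called between the lines, where 15.1% of isoforms were. Of the 10, 9 were higher and only GABPA-202 was lower. The directions over all isoforms were not counted, so this split is not read as a direction of the family. The 4 ETS1 isoforms among the 9 share reads of the same gene. Besides 4 of ETS1, the higher ones were ETV6-202, ELF4-202, ELF2-206, ELF2-201 and ETS2-206. ETS2-206 passed the filter through CD47- cells, and without it 9 were called, 8 of them higher. ETV6-202 made up 99.3% of the ETV6 count in WT and 98.9% in CD47- cells and rose by 1.56 ± 0.19 (adjusted p 3.7e-06). GABPA-201 and GABPA-202, which encode the same 454 amino acids, had log2 fold changes of -0.27 ± 0.12 (adjusted p 0.16) and -0.36 ± 0.11 (adjusted p 0.032). GABPA-202 was called in 17 and ELF2-201 in 7 of 24 fits, the reported one included. ELF4-201 and ELF4-202 also encode 1 protein, of 663 amino acids, and their shares varied widely within a line (57.5% ± 22.2 for ELF4-201 in WT), so their split is uncertain. FLI1-205 held 89.0% ± 5.36 of the FLI1 count in WT and 87.8% ± 4.37 in CD47- cells, ELK4-202 98.3% and 97.97%, and neither was called in level. No ERG isoform passed the filter.

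In the limma test of log2 ratios, which called 3.61% of isoforms, 1 of the 35 member isoforms tested for usage was called, a share near that background. This was ELF2-206, which diffSpliceDGE did not call (adjusted p 1). It encodes 521 amino acids and starts at an exon inside the gene. Its share was 21.1% ± 3.07 in WT and 27.4% ± 3.17 in CD47- cells (SD, n = 10), a log2 ratio higher by 0.51 (adjusted p 0.022), and its level rose by 0.49 ± 0.13 (adjusted p 0.013). The share of ELF2-203, with 593 amino acids and an upstream first exon, was 34.2% ± 4.57 in WT and 22.7% ± 7.85 in CD47- cells, at -0.91 (adjusted p 0.057). With the library that stood apart left out it was -0.70 (adjusted p 0.031). ETS2-206, which begins at its own first exon (chr21:38809403-38809449), held 0 in 6 WT libraries and at most 1.45 CPM in the others. In CD47- cells it held 0 in 2 libraries and up to 19.0 CPM, in untreated cells, and its share was 5.44% ± 5.34 against 0.211% ± 0.340 in WT. It passed the count filter through CD47- cells, and with most WT libraries at 0 neither a fold nor a test of its level or usage is used for it. It was the 1 member isoform called for usage by diffSpliceDGE, which called 0.647% of isoforms. ETS2-206 encodes the same 469 amino acids as the main isoforms ETS2-202 and ETS2-205, among which RSEM divides shared reads.

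Of the 18 other human ETS genes 7 were tested, and 4 were called between the lines (40.4% of all genes). Of these, 3 were lower (20.6% of all genes) and 1, ETV2, was higher (19.8%). ELK1 and ELK3, the other ternary complex factors, were lower in CD47- cells, at -0.59 ± 0.11 and -0.82 ± 0.17 (adjusted p 9.8e-05 and 0.00053). ETV5, of the PEA3 branch, was lower at -0.75 ± 0.17 (adjusted p 0.0013). In the 4 unactivated pairs the calls of ETV5 (-0.74, adjusted p 0.15) and ELK3 (-0.76, adjusted p 0.053) were lost. ETV2 ran from 0.126 to 0.815 CPM in WT libraries and from 0.611 to 1.78 CPM in CD47- ones. Like ERG it lies at the filter in WT cells, so its call, toward higher levels in CD47- cells, is not used as support. ERF, ETV3 and SPIB were not called by edgeR as reported. With the replicate block ETV3 was called higher (0.33, adjusted p 0.00015), and CD47- was higher in 10 of 10 pairs. The other 11, SPI1 among them, had too few counts to be tested.

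Among the partners, edgeR called 2 of 5, both lower (20.6% of all genes). GABPB2, which pairs with GABPA, averaged 87.4 ± 12.7 CPM in the WT libraries and 46.3 ± 10.1 CPM in the CD47- ones without overlap (SD, n = 10), a log2 fold change of -0.92 ± 0.12 (adjusted p 1.3e-06). GABPB1 had -0.18 ± 0.10 (adjusted p 0.16). CBFB, the subunit that stabilises RUNX1 on DNA beside ETS1, was lower at -0.33 ± 0.10 (adjusted p 0.013), and RUNX1 had -0.10 ± 0.14 (adjusted p 0.59), or -0.22 (adjusted p 0.080) without the library that stood apart, where it reached 262 CPM. In limma voom (adjusted p 0.060) and in the 6 activated (0.066) or 4 unactivated pairs (0.39) CBFB was not called. SRF, the partner of ELK4, had 0.25 ± 0.10 (adjusted p 0.051). SRF was called higher by DESeq2 (0.26, adjusted p 0.035), by limma voom (0.31, 0.012) and with the replicate block (0.26, 0.0046).

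Of 8 genes known to be bound by ETS factors in T cells, 7 were tested, 4 were called lower (20.6% of all genes) and 1 higher (19.8%). Their median log2 fold change was -0.70. IL7R, the interleukin-7 receptor chain that GABP activates, went from a WT mean of 38.9 ± 19.1 CPM to a CD47- mean of 7.16 ± 1.96 CPM (SD, n = 10), at -2.44 ± 0.27 (adjusted p 1.7e-07). TRAC, the constant region of the T cell receptor alpha chain, went from 184 ± 62.6 to 21.8 ± 5.12 CPM, at -3.08 ± 0.18 (adjusted p 4.6e-12). PTCRA, the pre-T cell receptor alpha chain, was lower at -3.07 ± 0.18 (adjusted p 3.7e-12), and ITGAL, an integrin, at -0.70 ± 0.10 (adjusted p 2.7e-06). KLF2, a quiescence factor, was higher at 1.04 ± 0.13 (adjusted p 9.4e-07). CD247 and LCK were not called by edgeR, and IL2RA did not pass the count filter, since too few libraries reached it. It stood at 6.92 and 5.07 CPM in WT cells with CD3+CD28 and CD3+CD28+TSP1 at 3 h and at most 1.36 CPM elsewhere. LCK was called higher by limma voom (0.26, adjusted p 0.0020) and by edgeR without the library that stood apart (0.19, adjusted p 0.018). Whether any of these genes follows a member was not tested.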

How the data were processed

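Messenger RNA was sequenced from 20 cultures of WT and CD47- Jurkat cells. Per the labels and the methods of the study, the authors deposited RSEM 1.3.3 expected counts, made from cutadapt 1.18 trimmed reads and STAR 2.4.2a alignments to GRCh38, for 60719 genes and 232184 isoforms. The strand setting is not given in the sources used here. Each table held 2 columns of no sample, which were not used.

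Expected counts were rounded. edgeR 4.0.16 in R 4.3.3 filtered genes (filterByExpr, grouped by line, with a minimum count of 10 and a total of 15), scaled libraries by TMM factors and ran quasi-likelihood tests with Benjamini-Hochberg adjustment over all 16327 genes tested, at 0.05. The lines were compared over all 20 libraries. Times and treatments were tested in 1 model that held a term for every treatment of a line and terms for 3 h and 6 h in that line. Tests were run on simulated data, where diffSpliceDGE called more unchanged than changed isoforms. A limma 3.58.1 test of the log2 ratio of an isoform to the other isoforms of its gene (0.5 added to each) was therefore added after the data had been seen, as were the 6 h against 3 h contrasts and the interaction at 3 h. DESeq2 1.42.0, limma voom, other filters, leaving out each library and a replicate block were the alternatives. Libraries of the 2 lines with the same treatment and time were paired by these labels. They deviated together from their line means in 10 of 10 pairs (r from 0.126 to 0.602 across genes). Libraries of unlike treatment or time were not correlated, and time was not removed, so these r values do not test the pairing.

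CPM values were TMM-scaled. The limit of 3 counts was 0.0978 to 0.155 CPM and covers counting error only. Isoform lengths came from GENCODE version 44, which held 75 of the 77 member isoforms. The 10 members are those whose names define the family list. The other lists were 18 further ETS genes, 5 partners and 8 genes bound by ETS factors, and of these the called genes with the smallest p were named. Members and lists were chosen with earlier results of these data known. Every condition was sequenced once. The reported p-values between the lines therefore rest on the spread between cultures of different treatment or time. Those for time, treatment and interactions rest on the spread that the treatment and time terms of each line leave over. Neither rests on repeated cultures of a condition.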

Additional observations from a re-analysis of the deposited data

Results flagged for a closer look

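In 3 of 20 tests of a group of 10 libraries, the highest library stood far from its nearest neighbour. Its distance was beyond Dixon's 95% critical ratio for 10 values. For 10 draws from a single normal spread, chance gives about 1 in 20. Each group here mixes times and treatments, so that rate need not hold. ELK4 reached 165.9 CPM and ELF4 reached 26.02 CPM in CD47- cells with CD3+CD28+TSP1 at 3 h, the library that stood apart. ELK4 reached 163 CPM in untreated WT cells.

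The change between 1 and 3 h differed between the lines for 4 members by the interaction in edgeR's quasi-likelihood test, where 4.28% of genes were called, and the change between 1 and 6 h for 3, where 16.6% were. The difference in log2 change, CD47- minus WT, was -0.94 for ETS2, 0.59 for FLI1, 0.87 for ETV6 and -0.38 for ELF1. At 6 h it was -0.62 for ETS2, -0.58 for ETS1 and -0.48 for ELF1. The ELF1 difference at 3 h was lost in 15 of 18 fits that left out 1 library, and that of ETV6 in 4 of them (adjusted p up to 0.10).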

How the results depend on the processing

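Among alternatives other than leaving out a library, counts of called members or isoforms stayed within 1.5 times the reported count in 64 of 70 cases. With the 4 unactivated pairs alone 2 members were called between the lines. Without the low-count filter 1 member was called for CD3+CD28+TSP1 against CD3+CD28 in CD47- cells. With a minimum count of 30, isoform usage gave 0 calls by diffSpliceDGE and 2 by limma. The limma count was 3 with the replicate block and 4 with a time term. Leaving out 1 library gave 5 to 6 members between the lines, 4 to 8 for CD47- cells at 3 h, 3 to 5 for the interaction at 6 h, 2 to 5 for that at 3 h and 1 to 2 isoforms for limma usage. With the 10 matched pairs as a replicate block FLI1 was called between the lines (0.35), and no other member's call changed, while the partner SRF and the further ETS gene ETV3 were called as well.

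Signs turned only where no call was made. ETS2 between the lines was 0.00079 by DESeq2, 0.11 by limma voom, 0.022 with upper-quartile factors, 0.0031 with 1 CPM in every library, 0.073 with the replicate block, 0.070 with a time term and 0.027 in the 6 activated pairs. ELF1 was 0.060 and GABPB1 0.026 in the 4 unactivated pairs, and RUNX1 was 0.089 in the 6 activated pairs. By limma voom ELK4 at 3 h in WT was 0.027, ETS1 at 3 h in WT 0.0063 and ERG from 3 to 6 h in WT 0.074. Leaving out 1 library gave -0.11 to 0.018 for ELF1 and -0.074 to 0.051 for ETS2 between the lines. In WT it gave -0.35 to 0.58 for ERG at 6 h, -0.045 to 0.86 for ERG at 3 h, -0.11 to 0.013 for ELK4 at 3 h and -0.15 to 0.018 for GABPA from 3 to 6 h. In CD47- cells it gave -0.15 to 0.32 for ELK4 at 3 h, -0.41 to 0.068 for ELF4, -0.35 to 0.022 for ETV6 and -0.066 to 0.0071 for GABPA from 3 to 6 h. For interactions it gave -0.050 to 0.19 for ETV6 at 6 h and -0.11 to 0.36 for ELK4 at 3 h. The cause was not tested. ERG, at 3 to 28 counts per library, is limited by depth and could not be tested with 1 CPM in every library.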
